A study of Mus musculus with 2 samples.

Results

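The SWI/SNF (BAF) chromatin remodelling complex was examined through 10 of its subunit genes, Smarca4, Smarcb1, Smarcc1, Smarcc2, Smarcd1, Smarcd2, Arid1a, Arid1b, Dpf2 and Actl6a, in mouse embryonic stem (ES) cells that overexpress the zinc finger factor Klf5. The members are all probe sets with a single gene symbol for these genes, 23 of the 45037 probe sets and 10 of the 18193 genes named on the arrays. The samples were clone 2 and clone 1 of Klf5-overexpressing E14 ES cells, labelled undifferentiated and grown in ES medium with 15% fetal bovine serum and LIF (leukaemia inhibitory factor, which sustains self-renewal). Total RNA of each clone was hybridised to 1 Affymetrix array, which makes 1 group with n = 2. The labels give neither the Klf5 construct nor the days of culture and hybridisation. The study planned a comparison with wild-type ES clones; their arrays were not analysed here, and no value below is a change caused by Klf5.

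BAF complexes use ATP to slide or evict nucleosomes and so open or close DNA to transcription factors. Each complex is built from a catalytic ATPase, a core of scaffold proteins and accessory subunits, and many positions can be filled by one of several paralogues. The form described in ES cells, esBAF, carries the ATPase Brg1 (Smarca4) rather than Brm (Smarca2), uses BAF155 (Smarcc1) with little BAF170 (Smarcc2), and contains BAF250a (Arid1a) and BAF53a (Actl6a); when neurons form, BAF53a is exchanged for BAF53b (Actl6b). Canonical BAF contains Arid1a or Arid1b with a Dpf protein, PBAF contains Arid2, Pbrm1, Brd7 and Phf10, and non-canonical BAF (ncBAF) contains Brd9 with Bicra or Bicral.

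The promoters of the ATPase pair and of the actin-related pair are shown because these pairs had 1 paralogue above background and the other well below it in both clones. Each is RefSeq's window of 250 bases before to 50 after the gene's start, build GRCm38.p6, plus strand, 5′ to 3′. Capitals mark every match, on either strand, to CCNCNCCC, letters shared by sites of Klf and Sp factors; overlapping matches run together.
Smarca4, chr9:21615919-21616218: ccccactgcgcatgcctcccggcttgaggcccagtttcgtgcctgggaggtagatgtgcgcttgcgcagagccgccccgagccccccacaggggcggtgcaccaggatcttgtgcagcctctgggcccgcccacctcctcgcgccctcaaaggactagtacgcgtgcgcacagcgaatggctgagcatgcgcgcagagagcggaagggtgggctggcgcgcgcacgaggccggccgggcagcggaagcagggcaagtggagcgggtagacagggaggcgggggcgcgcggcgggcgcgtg
Smarca2, chr19:26604910-26605209: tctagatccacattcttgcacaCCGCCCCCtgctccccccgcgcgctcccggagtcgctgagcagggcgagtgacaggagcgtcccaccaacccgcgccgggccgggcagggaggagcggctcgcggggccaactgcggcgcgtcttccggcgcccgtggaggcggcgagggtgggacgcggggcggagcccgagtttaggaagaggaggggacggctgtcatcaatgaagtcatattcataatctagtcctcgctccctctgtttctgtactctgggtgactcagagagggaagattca
Actl6a, chr3:32708296-32708595: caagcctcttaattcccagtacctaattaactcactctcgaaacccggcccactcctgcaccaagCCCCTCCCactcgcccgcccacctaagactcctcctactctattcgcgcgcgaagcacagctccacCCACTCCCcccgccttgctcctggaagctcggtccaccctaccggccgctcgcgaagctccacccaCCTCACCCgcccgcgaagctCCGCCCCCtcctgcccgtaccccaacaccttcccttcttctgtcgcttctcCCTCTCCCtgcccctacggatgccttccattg
Actl6b, chr5:137553296-137553595: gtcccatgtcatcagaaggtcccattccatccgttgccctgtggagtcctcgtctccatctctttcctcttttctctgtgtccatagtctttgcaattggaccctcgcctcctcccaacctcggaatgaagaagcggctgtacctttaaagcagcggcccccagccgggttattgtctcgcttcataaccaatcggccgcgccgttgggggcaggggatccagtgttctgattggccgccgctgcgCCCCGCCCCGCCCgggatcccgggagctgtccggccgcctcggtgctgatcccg

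All 10 members were found in the promoter table, with 11 windows since Arid1a has 2. The letters CCNCNCCC were present in 6 of the 11 windows, those of Smarcc1, Smarcd1, Smarcd2, Arid1b, Actl6a and the second of Arid1a, against 49.5% of all 32851 windows of the same length. In the pairs printed above, Smarca4 had 0 matches and Smarca2 had 1, while Actl6a had 5 and Actl6b had 2. The TATA box letters TATAAA, searched on both strands, were in 1 of the 11 windows, that of Smarcd2, against 13.6% of all windows. The first base of the Smarcd2 match lay at -231 from the gene's start. The members' windows held 55.0% to 81.0% G and C, against a median of 52.7% over all windows, and 4 to 48 CpG dinucleotides, against a median of 7. These are matches of letters and not measurements of binding.

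The deposited values were read as log2 signals, a base that the labels do not state. They had a median of 5.18 in clone 2 and 5.27 in clone 1. The correlation between the arrays was 0.990 over all probe sets (probe sets are not replicates). Each array received a background level from 49 genes of specialised adult tissues, such as caseins, crystallins and digestive enzymes: the 95th percentile of their 78 probe sets. It was 6.29 in clone 2 and 6.67 in clone 1, and "above background" below means above the level of that array. With 1 array per clone no test of a difference between the clones is possible; each difference is the log2 signal of clone 2 minus that of clone 1 and is described by a fixed rule of size, 2-fold or more with the higher clone above background. The overexpressed gene Klf5 gave 12.25 in clone 2 and 11.61 in clone 1 by its brightest probe set, 7.26 and 6.97 by another, and 4.77 and 4.81, under background, by the third (clone 2, then clone 1). All 8 ES cell markers listed (among them Pou5f1, Sox2 and Nanog) were above background in both clones, as were 2 of 8 fibroblast markers (Thy1 and Pdgfrb), 1 of 8 neuronal markers (Stmn2), 0 of 6 primitive endoderm markers, 0 of 7 muscle markers and 0 of 3 lymphocyte markers. In clone 2 alone the neuronal Tubb3 and Elavl3, the endodermal Sox17 and the lymphocyte gene Cd3e passed too. Cd3e was lower in clone 2 (6.34) than in clone 1 (6.50) and passed where the level was lower. The muscle genes Myh6, Myl2 and Ckm and the lymphocyte genes Cd3e and Cd79a are themselves among the 49 background genes. Their signals helped to set the level, so the muscle and lymphocyte counts are no independent check.

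Of the 10 members, 9 were above background in both clones by their brightest probe set, and Smarcc2 was above it in neither. Over all genes, 48.1% were above background in both clones, 813 genes in clone 2 alone and 33 in clone 1 alone, where the level was higher. In RNA of a whole culture, fewer cells with a transcript and less of it per cell cannot be told apart. By probe set, 18 of the members' 23 were above background in both clones, 0 in 1 clone and 5 in neither. Those 5 were 1 each of Smarcb1, Smarcc1, Smarcc2, Smarcd1 and Dpf2. Of all 34945 probe sets with a single gene symbol, 13855 were above background in both clones, 1786 in 1 clone and 19304 in neither. Where the count of 9 members was lower or higher, the background level or the way a gene's probe sets were combined had changed. This count was 10 with the level at the 90th percentile or from sensory receptor genes. It was 8 when probe sets of a gene were averaged and 7 with the level at the 99th percentile.

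**Figure D1:**
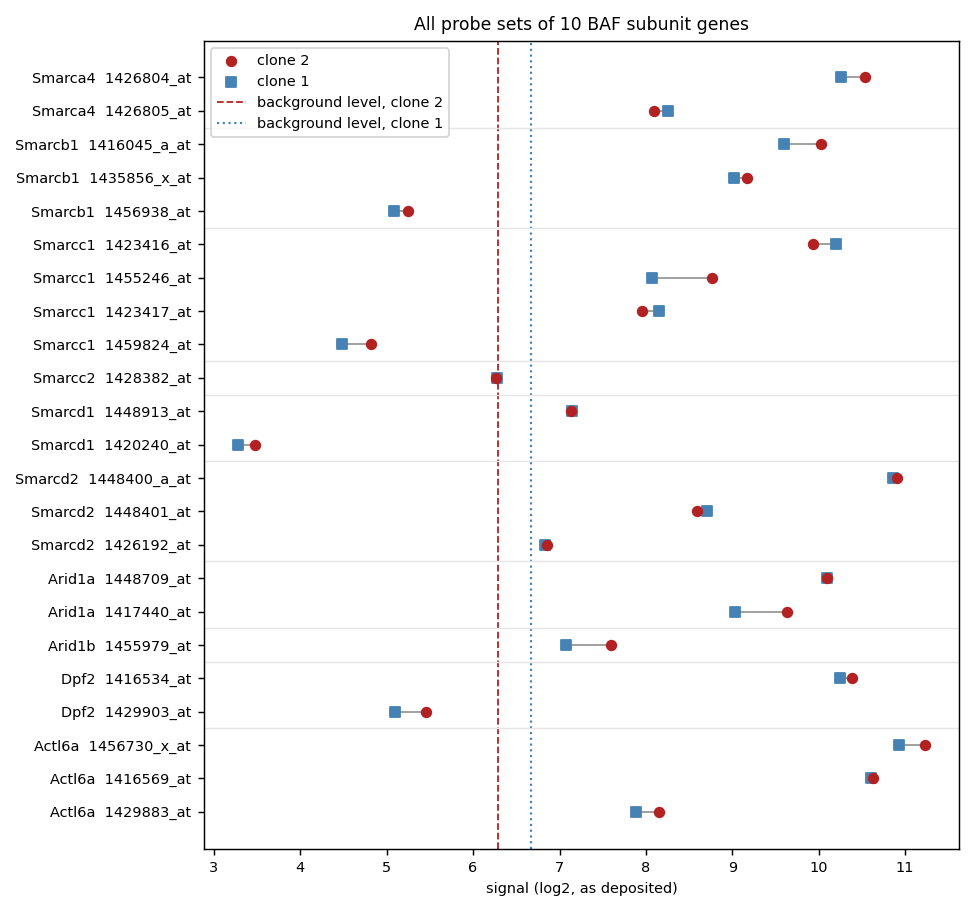
Signal (as deposited, read as log2) of the 23 probe sets of the 10 BAF subunit genes, each in clone 2 (circle) and clone 1 (square). The dashed and dotted lines are the background levels of clone 2 (6.29) and clone 1 (6.67). In 18 probe sets both clones lie above their own level, and Smarcc2, at 6.27 in clone 2 and 6.28 in clone 1, lies at the edge of it.

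Smarca4, the catalytic ATPase Brg1 (chromosome 9), was read by 2 probe sets, and both passed in both clones. The brighter (1426804_at) gave 10.54 in clone 2 and 10.26 in clone 1 (mean 10.40 ± 0.20, SD, n = 2). The dimmer (1426805_at) gave 8.09 in clone 2 and 8.26 in clone 1. The first is higher in clone 2 by 0.28 and the second lower by 0.17 (a difference of -0.17), so the probe sets of Smarca4 gave no shared direction. Its paralogue Smarca2, the ATPase Brm (chromosome 19), had 4.49 in clone 2 and 4.70 in clone 1 by its brighter probe set. The other Smarca2 probe set gave 3.69 in clone 2 and 3.74 in clone 1. Both lie well under the background level in both clones, the brighter at -1.80 from the level in clone 2 and -1.97 in clone 1.

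Among the core scaffold subunits, Smarcb1 (BAF47, chromosome 10), which contacts the nucleosome's acidic patch, was above background in both clones in 2 of 3 probe sets. The brightest (1416045_a_at) gave 10.03 in clone 2 and 9.60 in clone 1 (mean 9.82 ± 0.30, SD, n = 2). The second (1435856_x_at) gave 9.17 in clone 2 and 9.02 in clone 1, and the third, at 5.25 in clone 2 and 5.09 in clone 1, was not above background. Both probe sets above background were higher in clone 2, by 0.43 and 0.15 on the log2 scale. The probe sets above background were divided by signal into 4 bands of near equal size, and in the top band, with 3910 probe sets, 6.45% had a difference at least that of the brightest Smarcb1 probe set.

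Smarcc1, the scaffold BAF155 (chromosome 9), had 3 probe sets above background in both clones, and they did not share a direction. The brightest (1423416_at) gave 9.93 in clone 2 and 10.20 in clone 1 (mean 10.07 ± 0.19, SD, n = 2), which is -0.27 on the log2 scale. Another (1423417_at) gave 7.96 in clone 2 and 8.15 in clone 1, which is -0.19. The probe set 1455246_at, in contrast, gave 8.77 in clone 2 and 8.07 in clone 1, higher in clone 2 by 0.70 or 1.62-fold. Only 2.18% of the 3901 probe sets of its signal band differed by as much. The fourth, at 4.82 in clone 2 and 4.48 in clone 1, was not above background. Which clone had more Smarcc1 signal therefore depended on the probe set: the mean over all 4 probe sets, the one under background included, differed by 0.15, the opposite sign to the brightest.

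Smarcc2, the scaffold BAF170 (chromosome 10) and the paralogue of Smarcc1, was read by 1 probe set (1428382_at). It gave 6.27 in clone 2 and 6.28 in clone 1 (mean 6.28 ± 0.01, SD, n = 2). These values lie -0.02 from the level of clone 2 and -0.39 from that of clone 1. Its status is thus set by the choice of the level: Smarcc2 passed in both clones with the level at the 90th percentile (6.17 in clone 2 and 6.22 in clone 1), and with the level from sensory receptor genes (5.06 in clone 2 and 5.41 in clone 1).

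Of the BAF60 subunits, which link the complex to transcription factors, Smarcd2 (BAF60b, chromosome 11) and Smarcd1 (BAF60a, chromosome 15) were above background in both clones. Smarcd2 passed in all 3 of its probe sets. Its brightest (1448400_a_at) gave 10.91 in clone 2 and 10.86 in clone 1 (mean 10.89 ± 0.04, SD, n = 2). The others gave 8.59 in clone 2 and 8.71 in clone 1, and 6.85 in clone 2 and 6.83 in clone 1. The differences of Smarcd2 were 0.05, -0.12 and 0.02, with no shared direction. Smarcd1 passed in 1 of 2 probe sets, at 7.13 in clone 2 and 7.15 in clone 1 (7.14 ± 0.01, SD, n = 2), while the other gave 3.47 in clone 2 and 3.28 in clone 1. The passing Smarcd1 probe set lay 0.84 over the level in clone 2 and 0.48 over it in clone 1, and it was below the level at the 99th percentile. The third paralogue Smarcd3 (BAF60c, chromosome 5), known for its part in heart and muscle, was read by 1 probe set. Smarcd3 was not above background, at 6.15 in clone 2 and 6.25 in clone 1. Like Smarcc2 it lay close to the level, and it passed in both clones with the level from sensory receptor genes.

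The ARID subunits, large DNA-binding proteins that define canonical BAF, were both above background in both clones. Arid1a (BAF250a, chromosome 4) gave 10.09 in clone 2 and 10.09 in clone 1 by its brightest probe set (1448709_at), a difference of 0. Its other probe set (1417440_at) gave 9.63 in clone 2 and 9.03 in clone 1 (mean 9.33 ± 0.42, SD, n = 2), 1.52-fold higher in clone 2. In its band of 3901 probe sets 4.41% differed by as much. Both probe sets passed with room to spare, and they disagreed on whether the clones differ. Arid1b (BAF250b, chromosome 17), the alternative to Arid1a in a complex, was read by 1 probe set (1455979_at) at 7.60 in clone 2 and 7.08 in clone 1 (7.34 ± 0.37, SD, n = 2). Its difference of 0.52, or 1.43-fold, was the largest among the brightest probe sets of the 10 members. In its band 392 of 3919 probe sets had a difference of that size or more. Arid1b has no further probe set that could be set beside this one, and it was not above background in either clone at the 99th percentile (7.76 in clone 2 and 7.89 in clone 1).

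Dpf2 (BAF45d, chromosome 19), a subunit with PHD fingers that bind modified histone tails, gave 10.38 in clone 2 and 10.25 in clone 1 (10.32 ± 0.09, SD, n = 2) by its brighter probe set (1416534_at). The other gave 5.45 in clone 2 and 5.10 in clone 1 and was not above background. Actl6a (BAF53a, chromosome 3), an actin-related protein that also belongs to other chromatin complexes, passed in all 3 probe sets. The brightest (1456730_x_at) gave 11.23 in clone 2 and 10.93 in clone 1 (mean 11.08 ± 0.21, SD, n = 2). The ending x_at marks a probe set that may bind several transcripts. The next (1416569_at) gave 10.63 in clone 2 and 10.61 in clone 1. The third gave 8.15 in clone 2 and 7.88 in clone 1. All 3 differences of Actl6a were above 0 (0.30, 0.02 and 0.27), and without the x_at probe set the brightest differed by 0.02. Its neuronal paralogue Actl6b (chromosome 5) was read by 1 probe set, at 3.84 in clone 2 and 4.11 in clone 1. These values lie -2.45 from the level in clone 2 and -2.56 in clone 1. This reading of Actl6b was thus well under background in both clones, and no further probe set can be set beside it.

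**Figure D2:**
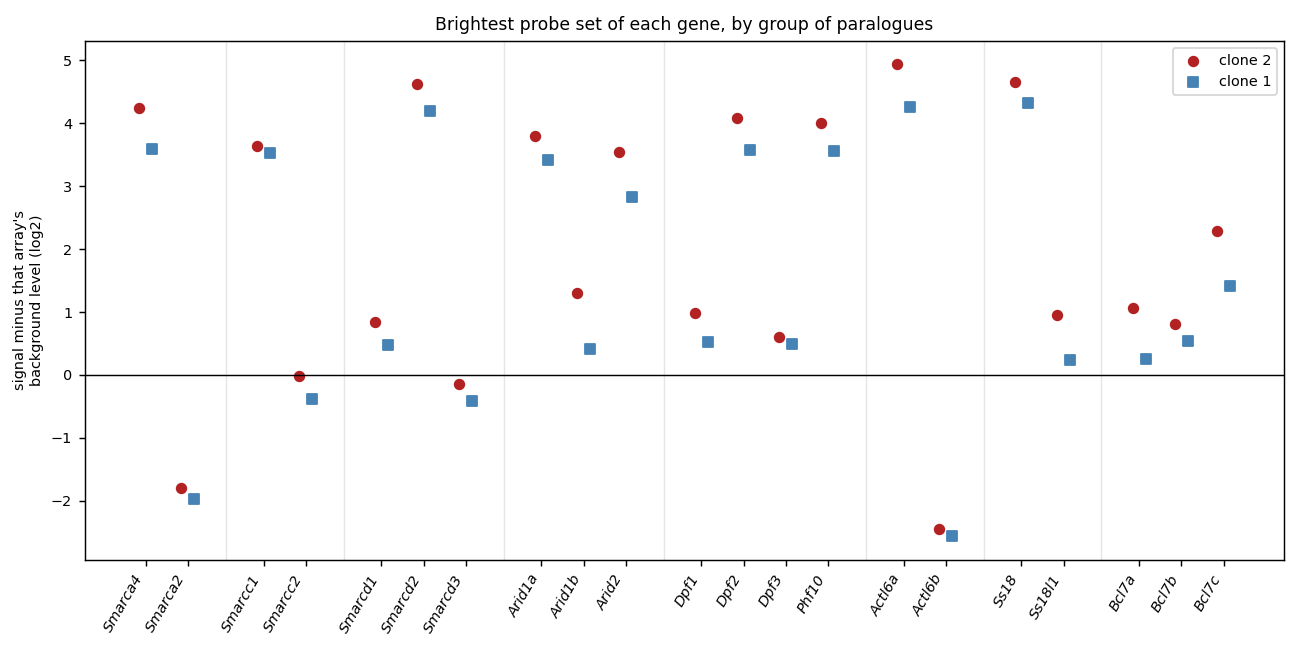
Signal of the brightest probe set of each gene minus the background level of the same array (log2), for 8 groups of paralogues, in clone 2 (circles) and clone 1 (squares); heights of different genes are not to be compared, only their side of 0. Smarca2, Smarcc2, Smarcd3 and Actl6b lie below 0 in both clones, Smarcc2 at -0.02 in clone 2.

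Taking the 8 groups of paralogues by position in the complex, 17 of 21 genes passed in both clones and 4 in neither. The 4 were Smarca2, Smarcc2, Smarcd3 and Actl6b, each in a group whose other members passed. In the remaining 4 groups every paralogue passed in both clones: Arid1a, Arid1b and Arid2; Dpf1, Dpf2, Dpf3 and Phf10; Ss18 and Ss18l1; Bcl7a, Bcl7b and Bcl7c. For Dpf1, Dpf2, Dpf3, Phf10, Bcl7a and Bcl7c, only the brightest of several probe sets passed in both clones. Probe sets differ in affinity, so the signals say which paralogues were above background and not which was the more abundant. At the 99th percentile none of these 4 groups was complete, since Arid1b, Dpf1, Dpf3, Ss18l1, Bcl7a and Bcl7b did not pass in both clones, and when probe sets of a gene were averaged Dpf1, Dpf3, Bcl7a and Bcl7c did not. Smarca2 and Actl6b were not above background at any level tried.

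The members' differences between the clones were set beside those of all genes. Over the 9 members above background, 6 were higher in clone 2, 2 were lower and Arid1a was equal, against 63.8% of all 9597 genes above background in at least 1 clone that were higher in clone 2. With each array centred on its median 8 of 9 members were higher in clone 2, against 77.7% of genes, and after quantile normalization 6 of 9, against 48.4% of genes. The members' median difference was 0.13, within a range of -0.27 (Smarcc1) to 0.52 (Arid1b), and the median over all such genes was 0.09; after quantile normalization these were 0.065 and 0. No member differed by 2-fold (0 of 9), where 0.448% of genes did, and 0 of 9 by 1.5-fold, where 4.46% did. With 9 members, counts of 0 lie near these shares. By probe set, 12 of the members' 18 above background were higher in clone 2, 5 were lower and 1 equal, against 64.0% higher over all 15641 probe sets. Of these 18, 2 differed by 1.5-fold or more, 1 each of Smarcc1 and Arid1a, against 5.54% of all probe sets. The SD of the difference was 0.28 over the members' 18 probe sets and 0.28 over all probe sets above background. The members' spread thus lay near that of the whole arrays. The shares higher in clone 2, of members and of all genes, changed with the scaling.

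**Figure D3:**
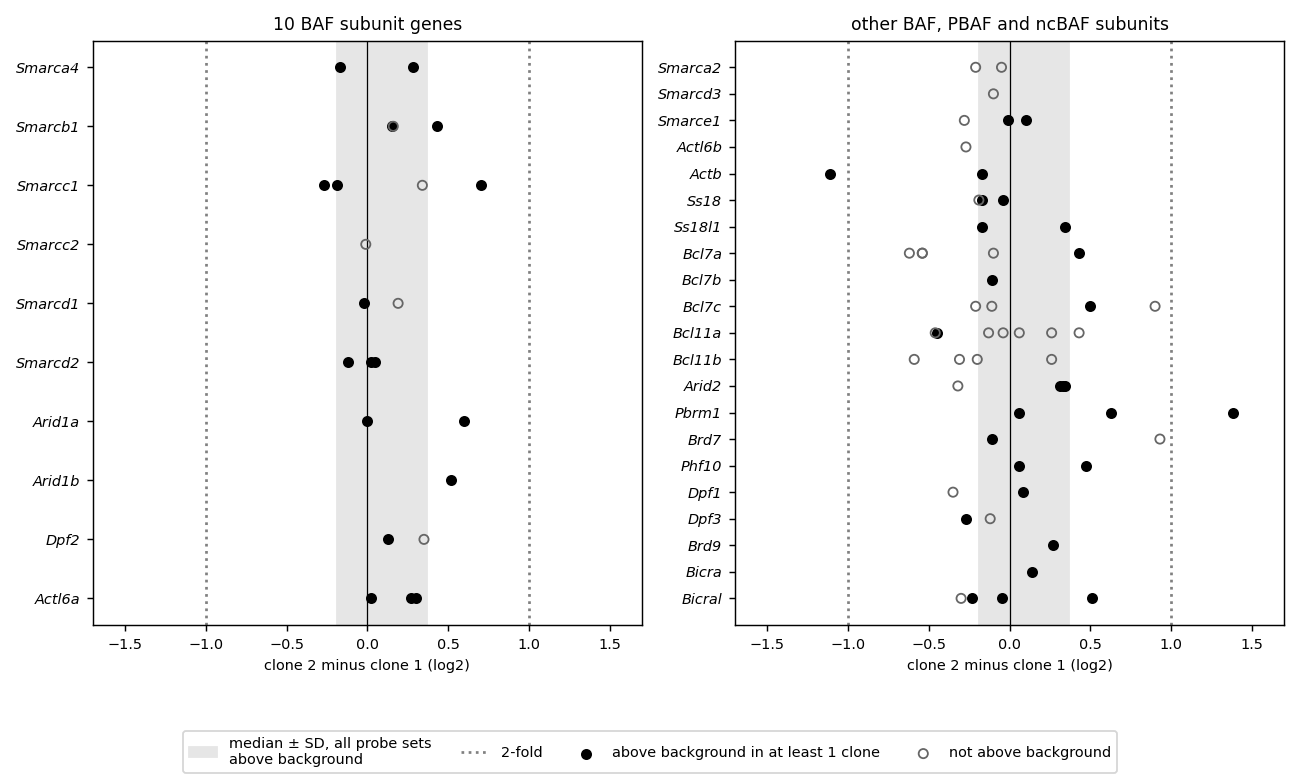
Difference between the clones (clone 2 minus clone 1, log2) for every probe set of the 10 BAF subunit genes (left) and of 21 other subunit genes (right); filled points are above background in at least 1 clone, open points in neither, the grey band is the median ± SD over all probe sets above background (0.09 ± 0.28) and the dotted lines mark 2-fold. The members' filled points run from -0.27 to 0.70, and among the other subunits 1 probe set of Pbrm1 and 1 of Actb lie past 2-fold.

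Several probe sets of a gene gave a further reading of the same RNA, and 6 members had at least 2 above background in both clones. In 3 of the 6, Smarca4, Smarcc1 and Smarcd2, the differences between the clones had both signs, against 47.5% of the 3355 genes with several such probe sets. The gap between the highest and the lowest difference was 0.97 for Smarcc1, and 3.74% of the 775 genes with 3 such probe sets had a gap as wide; their median gap was 0.34. For Arid1a it was 0.60, which 7.95% of the 2190 genes with 2 such probe sets reached, and for Smarca4 0.45, which 17.4% reached; their median gap was 0.21. Smarcb1 (0.28), Actl6a (0.28) and Smarcd2 (0.17) lay nearer to the medians. The positions of the probe sets along the transcripts are not in the files used here, and the part of isoforms or of probe behaviour in these gaps was not tested. A difference in Smarcc1, Arid1a or Smarca4 between the clones thus rests on the probe set chosen.

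**Figure D4:**
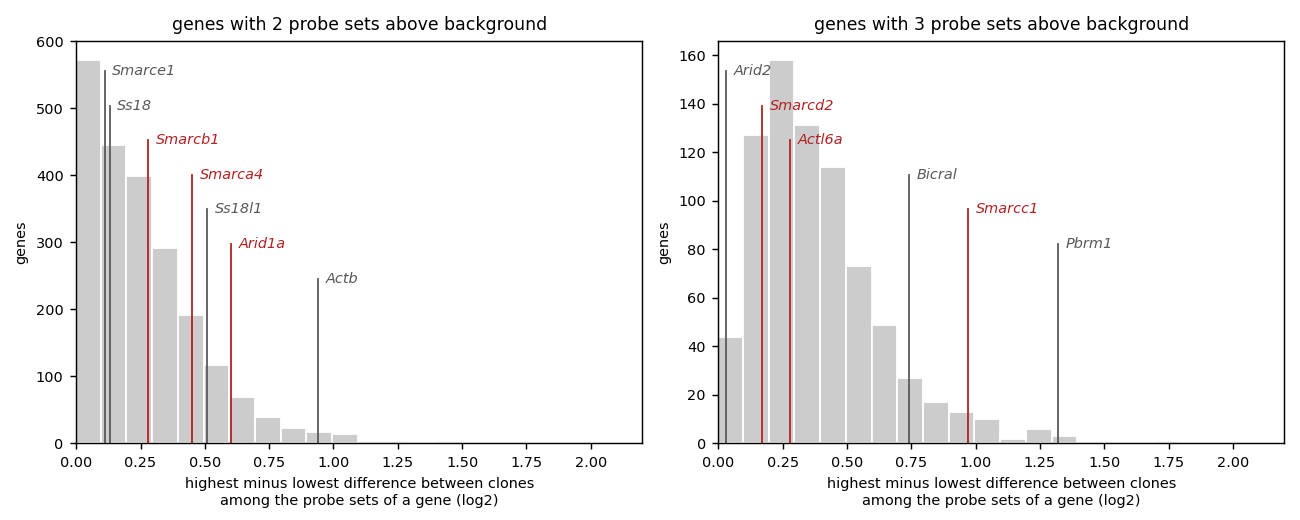
Genes by the gap between the highest and the lowest difference (clone 2 minus clone 1, log2) among their probe sets above background in both clones, for genes with 2 (left) and 3 (right) such probe sets; lines mark BAF members (red) and other subunits (grey). Smarcc1 (0.97), Pbrm1 (1.32) and Actb (0.94) lie in the upper tails.

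The other subunits were read as a list of 21 genes, of which 16 passed in both clones, Bicra in clone 2 alone, and Smarca2, Smarcd3, Actl6b and Bcl11b in neither. Over the 17 above background, 11 were higher in clone 2 and 6 in clone 1, the median difference was 0.10 (-0.005 after quantile normalization), and 0 differed by 2-fold and 1, Pbrm1, by 1.5-fold in the brightest probe set. Subunits shared by several forms of the complex included Smarce1 (BAF57, 9.13 in clone 2 and 9.03 in clone 1), Ss18 (10.95 in clone 2 and 10.99 in clone 1) and its paralogue Ss18l1 (7.24 in clone 2 and 6.90 in clone 1). Bcl7a gave 7.36 in clone 2 and 6.93 in clone 1, Bcl7b 7.10 in clone 2 and 7.21 in clone 1, and Bcl7c 8.58 in clone 2 and 8.08 in clone 1. Beta-actin, Actb, which is also a subunit, gave 13.82 in clone 2 and 13.99 in clone 1 by its brightest probe set, and 7.57 in clone 2 and 8.68 in clone 1 by the other, 2.16-fold lower in clone 2. Both readings of Actb were lower in clone 2 and they differed in size. The zinc finger subunit Bcl11a was above background only in an x_at probe set (6.80 in clone 2 and 7.25 in clone 1), with its other 6 probe sets in neither clone, and its paralogue Bcl11b reached 5.20 in clone 2 and 4.94 in clone 1.

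The subunits that define PBAF were all above background in both clones. Arid2 (BAF200) gave 9.83 in clone 2 and 9.50 in clone 1, and its 3 probe sets above background differed by 0.31 to 0.34, the narrowest gap among the subunits examined. Pbrm1 (BAF180), which reads acetylated histones through its bromodomains, gave 10.55 in clone 2 and 9.92 in clone 1 by the brightest of 3 probe sets. Its probe set 1426878_at gave 9.30 in clone 2 and 7.92 in clone 1, 2.60-fold higher in clone 2, and 1427266_at gave 9.06 in clone 2 and 9.00 in clone 1. All 3 were higher in clone 2, by sizes from 0.06 to 1.38. Brd7 gave 10.04 in clone 2 and 10.15 in clone 1, and Phf10 (BAF45a) 10.29 in clone 2 and 10.23 in clone 1. The Dpf paralogues Dpf1 (7.28 in clone 2 and 7.20 in clone 1) and Dpf3 (6.89 in clone 2 and 7.16 in clone 1), known from neurons and from heart and muscle, passed by under 1 on the log2 scale. For ncBAF, Brd9 gave 8.32 in clone 2 and 8.05 in clone 1, and Bicra gave 6.52 in clone 2 and 6.38 in clone 1. Bicral gave 9.13 in clone 2 and 8.62 in clone 1 by its brightest probe set. The 3 Bicral probe sets above background in both clones had differences of both signs, from -0.23 to 0.51. Defining subunits of all 3 forms of the complex were therefore above background in both clones, Bicra apart. Of 25 subunits of other remodellers (ISWI, INO80, SRCAP and TIP60 complexes), 23 were above background in both clones, with a median difference of 0.03, 0 of them differing by 1.5-fold.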

How the data were processed

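The authors deposited a table of log2 signals, 1 for each probe set on each array. Per the submitters' processing notes it was made with Transcriptome Analysis Console; background correction, summarisation and normalization are not given there. The values, from 2.21 to 14.38, were read as base 2, which the labels do not state and on which all folds rest. Of 45037 probe sets, 34945 had 1 symbol in the platform annotation, 932 several and 9160 are unnamed here; none with several named a BAF subunit. Entrez identifiers of the 10 members matched the GRCm38.p6 gene table. The clone numbers in the titles served as replicate numbers, and nothing says that the cultures were separate. A gene was represented by its probe set with the highest mean of both arrays; of 57 background genes listed, 49 were measured.

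No p-value was computed. All probe sets of the members and Klf5, and all genes of the other BAF list, were named by rule. The members and lists were chosen with earlier results of these data known. Signal bands were cut by mean signal over probe sets that passed in either clone. The fold rule was checked on simulated data. Python 3.11.15, pandas 2.3.3 and numpy 2.4.6 were used. Alternatives were median and quantile normalization, background at the 90th and 99th percentile or from sensory receptors, the mean over probe sets, omission of x_at and s_at probe sets, no filter, and each clone alone. The background without Mylpf and the higher level on both arrays were added after seeing the data.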

Additional observations from a re-analysis of the deposited data

How the results depend on the processing

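No paired analysis was possible because both arrays belong to 1 group. The members above background in both clones numbered 7 to 10 over the alternatives, and 9 to 9 in each clone alone. No member differed by 2-fold (0) under any alternative run. With arrays centred on the median 1 member, Arid1b, passed 1.5-fold (a difference of 0.61), and Smarcc2 and Smarcd1 turned to 0.08 and 0.07. Other BAF subunits above background in both clones numbered 10 of 21 at the 99th percentile and 11 by the mean over probe sets, against 16, and 16 to 17 in each clone alone; their median difference was -0.005 after quantile normalization. By the mean over probe sets the differences were 0.145 for Smarcc1, 0.085 for Smarcd1 and -0.0167 for Smarcd2, the opposite sign to the brightest probe set (Smarcd1 averages in a probe set under background and is then itself not above it, so its sign has no reading), and 0.055 for Smarca4 and 0.30 for Arid1a. The cause of these changes was not tested. The members' median difference ranged from 0.05 to 0.22. The number of arrays, and signals close to background for Smarcc2, Smarcd1 and Arid1b, limit the precision.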
